A study of Arabidopsis thaliana with 10 samples.

Results

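lnc-18 is a long noncoding RNA (lncRNA) locus of Arabidopsis thaliana that the authors predicted from sequencing and placed in their class level 2. It lies on chromosome 1, on the minus strand, opposite AT1G13609, a gene annotated as a defensin-like (DEFL) family protein. It was chosen by its class and locus number in the authors' list of predicted lncRNAs and is 1 of 620 level 2 loci, 1 of 978 predicted loci and 1 of 1362 lncRNA loci with expression values. The choice was made with its values over the libraries and its chromatin columns known, so both are given as a description, with no test.

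The values come from 9 strand-specific libraries of 12-day-old Col-0 wild-type seedlings, made from poly(A)- RNA, which is what remains after polyadenylated and ribosomal RNA are removed. Seedlings were kept in cold (4 °C), heat (37 °C), salt (200 mM NaCl) or drought (300 mM mannitol, an osmotic substitute for water loss), each for 12 h and for 3 h, and the control was untreated and taken at 3 h. Each condition has 1 library, and no control was taken at 12 h, so a ratio to the control at 12 h holds stress and time together, and no difference below has a replicate check. Whole seedlings were used, so fewer cells of a type and less RNA per cell cannot be told apart.

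Defensin-like genes encode small secreted peptides rich in cysteine, a large plant family related to the antimicrobial defensins. An antisense transcript is read from the strand opposite a gene, and antisense RNAs in plants are known in several cases to act on the gene they overlap, either on its chromatin or on its RNA. The mark H3K27me3, trimethylation of lysine 27 of histone H3, is set by Polycomb proteins and in Arabidopsis is found mostly over genes with little transcription in the tissue studied.

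In the TAIR10 assembly the transcript covers chr1:4662844-4663495, 652 bp, and its 2 exons together are 270 nt long. Both exons are shown because the level of the locus is scaled to their length and the overlap with the gene lies in one of them. They are given 5′ to 3′ on the minus strand, read from the RefSeq copy of the assembly (TAIR10.1). In the 5′ exon the capitals mark the first and last codon of the longest open reading frame. In the 3′ exon they mark bases complementary to coding sequence of AT1G13609, transcript 1.
lnc-18 5′ exon, chr1:4663362-4663495: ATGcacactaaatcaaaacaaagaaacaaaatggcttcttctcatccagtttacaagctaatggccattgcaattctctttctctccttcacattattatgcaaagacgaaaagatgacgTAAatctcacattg
lnc-18 3′ exon, chr1:4662844-4662979: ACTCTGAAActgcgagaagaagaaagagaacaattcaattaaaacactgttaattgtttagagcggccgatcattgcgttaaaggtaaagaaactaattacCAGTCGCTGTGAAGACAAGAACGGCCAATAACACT

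The 5′ exon (134 nt) starts the transcript outside AT1G13609 and shares no base with it. A gap of 108 bp separates it from the end of the gene. The intron of 382 nt has the usual GT and AG at its ends on the minus strand (GTtcgtgtgc and tcctctgcAG), which places the transcript on the strand opposite the gene. This intron spans 274 nt of the second exon of AT1G13609 in transcript 1 of the gene, 167 nt of them coding. In transcript 2 it spans 240 nt, 69 nt of them coding.

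Of the spliced transcript, only the 3′ exon (136 nt) overlaps the gene. It lies over 35 nt of the first coding exon, the whole 92 nt intron and 9 nt of the second coding exon of transcript 1, so 44 nt of it are complementary to coding sequence. Transcript 2 of the gene has a shifted intron of 93 bp, and the 3′ exon lies over 90 nt of it and over 46 nt of coding sequence, all in the second exon. In transcript 1, lnc-18 ends 26 nt inside the coding sequence, counted from the gene's start codon. In transcript 2 the same end falls within the intron.

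**Figure D1:**
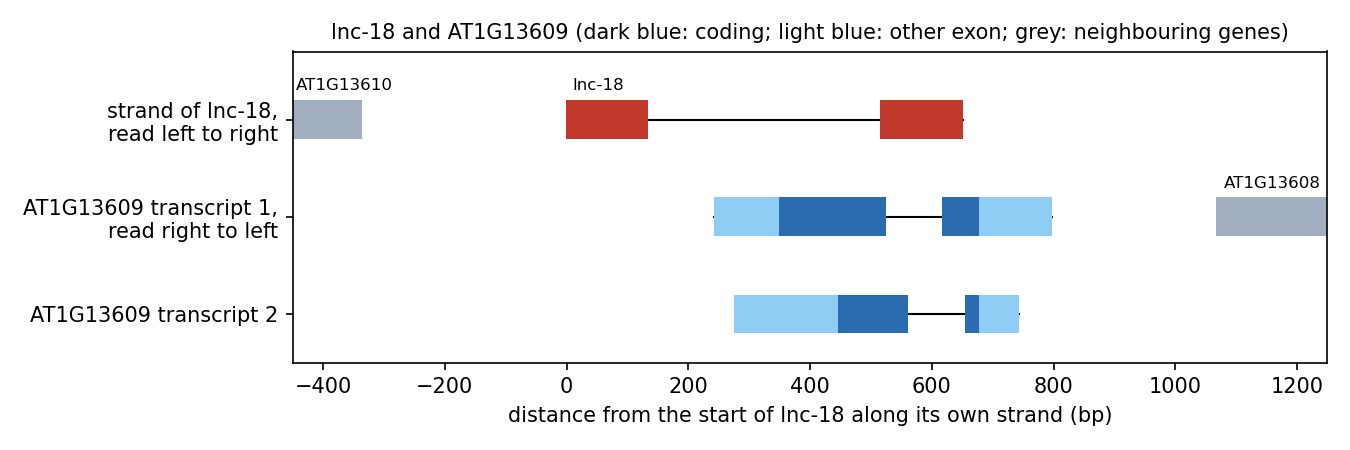
Map of lnc-18 (red boxes, exons) and both transcripts of AT1G13609 (dark blue, coding; light blue, other exon) against the distance in bp from the start of lnc-18 along its own strand. The 5′ exon lies clear of the gene, and the 3′ exon lies over the 92 nt intron of transcript 1 and the 44 coding nt on either side of it.

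AT1G13609 (chr1:4662698-4663253, plus strand) is the last of 4 defensin-like genes in a row on the plus strand, after AT1G13605, AT1G13607 and AT1G13608, and 269 bp separate it from AT1G13608. On the other side, AT1G13610, annotated as an alpha/beta-hydrolase, lies on the minus strand like lnc-18 and ends 335 bp before lnc-18 begins. No annotated gene on the strand of lnc-18 overlaps it. The RNA of AT1G13609 itself is not among the lncRNA values and was not analysed here, so nothing below says whether the gene's own transcript moved.

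Neighbouring members of the gene row hold stretches like the 3′ exon, which bears on whether reads could be shared. The closest match by length is 48 nt of the strand opposite AT1G13607, shown with the differing bases in capitals.
lnc-18 3′ exon, chr1:4662847-4662894: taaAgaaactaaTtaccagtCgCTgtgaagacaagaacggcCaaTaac
Opposite AT1G13607, chr1:4660807-4660854: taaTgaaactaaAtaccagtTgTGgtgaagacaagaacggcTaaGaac
These differ at 7 of 48 bases (85.4% identity). A stretch of 34 nt opposite AT1G13608 differs at 3 bases (91.2% identity). Elsewhere in the genome the longest alignment of the transcript was 67 nt, which lies in the 5′ exon and has 76.1% identity. The longest exact stretch of the transcript with a further copy was 20 nt, while the reads were 100 nt long.

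The transcript holds 5 complete open reading frames on its own strand, and 36.7% of its bases are G or C. The longest runs from base 1 to base 123, all within the 5′ exon, with 40 codons before the stop. It holds 4 in-frame ATG codons, the second at base 31. Since the frame opens at the first base of the predicted transcript, its true start is not known from these files.

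lnc-18 was one of the most abundant predicted lncRNAs of these seedlings. Its level was highest in cold at 12 h, near 0 in heat at 3 h and low in cold at 3 h, and in between in salt and drought. It had 1224 reads over the 9 libraries, the 13th highest total of all 1362 loci and the 3rd highest of the 978 predicted ones; 1114 loci had any read. Levels are in RPKM, which scales reads by exon length and by how many reads of a library mapped. Each interval below is an exact Poisson 95% interval of the reads and covers counting error only.

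In cold the level was 55.6 RPKM at 12 h (478 reads, interval 50.8 to 60.8) and 2.14 RPKM at 3 h (19 reads, 1.29 to 3.34). In heat it was 23.6 RPKM at 12 h (219 reads, 20.6 to 26.95) and 0.200 RPKM at 3 h (2 reads, 0.0242 to 0.722). The 2 libraries taken at 3 h of cold and heat are the lowest of the 9, and the value in heat at 3 h lies under the 0.300 RPKM that 3 reads would give.

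In salt the level was 10.3 RPKM at 12 h (49 reads, 7.63 to 13.6) and 14.3 RPKM at 3 h (122 reads, 11.9 to 17.1). In drought it was 10.6 RPKM at 12 h (60 reads, 8.07 to 13.6) and 15.0 RPKM at 3 h (106 reads, 12.3 to 18.2). The control had 24.8 RPKM (169 reads, 21.2 to 28.9). All 4 salt and drought libraries lie under the control, and their intervals do not reach its interval.

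**Figure D2:**
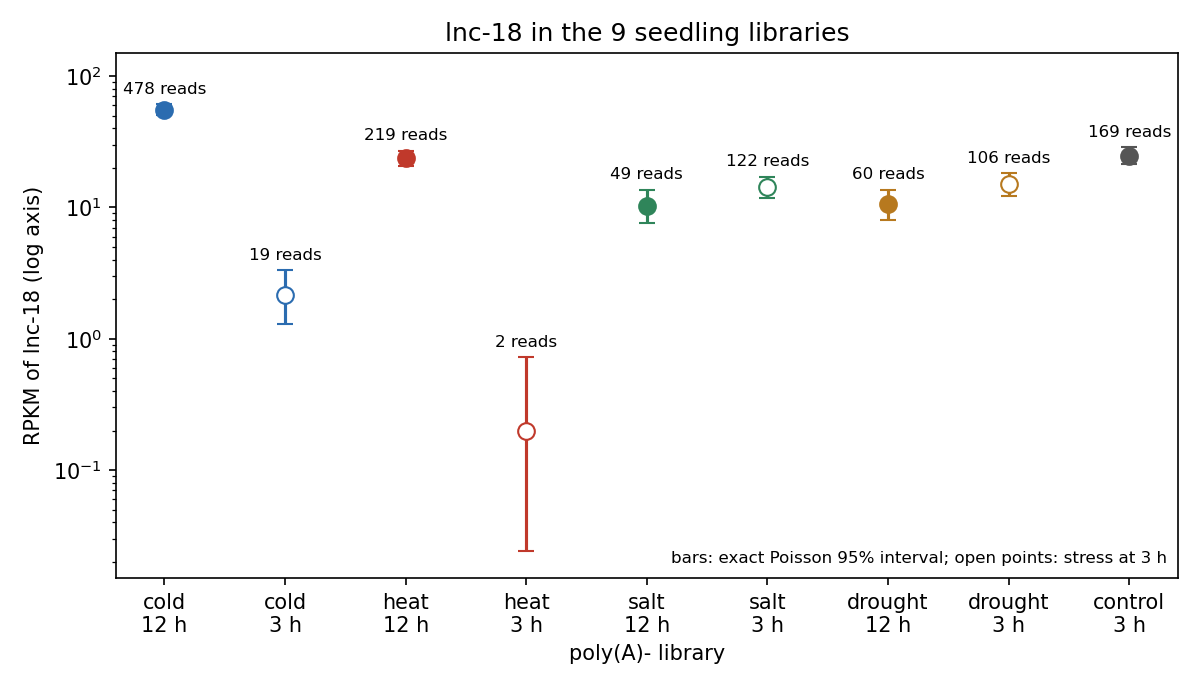
Level of lnc-18 in RPKM (log axis) in each poly(A)- library, with exact Poisson 95% intervals and the number of reads over each point. Open points are stress at 3 h. Cold and heat have a wide gap between 12 h and 3 h (55.6 against 2.14 RPKM and 23.6 against 0.200 RPKM), while the 4 salt and drought libraries lie between 10.3 and 15.0 RPKM.

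From highest to lowest the order was cold at 12 h, control, heat at 12 h, drought at 3 h, salt at 3 h, drought at 12 h, salt at 12 h, cold at 3 h and heat at 3 h. Neighbours whose ratio has an exact binomial 95% interval that includes 1 are control and heat at 12 h, drought and salt at 3 h, salt at 3 h and drought at 12 h, and drought and salt at 12 h. The 4 other steps in the order lie beyond counting error. The step above salt and drought, heat at 12 h over drought at 3 h, was 1.57-fold (1.24 to 2.00), and the step below them, salt at 12 h over cold at 3 h, was 4.83-fold (2.79 to 8.68).

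Its place among the predicted lncRNAs moved with its level. By RPKM it was the highest of all 978 predicted loci in cold at 12 h and in drought at 3 h, and the 2nd in heat at 12 h, salt at 3 h and the control. It ranked 5th in salt at 12 h and 4th in drought at 12 h. In cold at 3 h it ranked 15th, and in heat at 3 h it ranked 134th.

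As a share of all reads on predicted lncRNAs, lnc-18 made up 9.08% in cold at 12 h and 0.851% in cold at 3 h. In heat it made up 4.45% at 12 h and 0.0823% at 3 h, and in the control 8.83%. Shares do not depend on the mapped total of a library. In salt the share was 1.79% at 12 h and 4.57% at 3 h, and in drought 1.54% at 12 h and 5.39% at 3 h.

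Each stress library was set against the control, to see which stress moved the locus and in which direction. Against the control, lnc-18 was 2.24-fold higher in cold at 12 h (exact binomial 95% interval 1.87 to 2.68). It was 11.6-fold lower in cold at 3 h (7.22 to 19.8) and 124-fold lower in heat at 3 h (33.9 to 1035), the last ratio resting on 2 reads against 169. Heat at 12 h did not differ from the control beyond counting error, with a ratio of 0.950 (0.774 to 1.17).

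In salt the ratio to the control was 0.415 at 12 h (0.296 to 0.574) and 0.577 at 3 h (0.453 to 0.732). In drought it was 0.425 at 12 h (0.311 to 0.574) and 0.605 at 3 h (0.470 to 0.776). Salt and drought lie close together at each time. The ratio of salt to drought was 0.976 at 12 h (0.655 to 1.45) and 0.953 at 3 h (0.728 to 1.25), so a difference between them of up to about these bounds was not detectable at this depth. All 8 ratios share the control library, so an error in its level would move them together.

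Well covered lncRNAs tended to be higher in the stress libraries than in the control. For the 59 loci that reached 5 reads in each of the 9 libraries, the median log2 ratio to the control lay between 0.04 in heat at 3 h and 0.91 in drought at 12 h. Relative to this shift, lnc-18 had a ratio to the control of 1.49 in cold at 12 h and 0.0649 at 3 h, 0.725 in heat at 12 h and 0.00780 at 3 h. The corresponding ratios were 0.247 in salt at 12 h and 0.525 at 3 h, and 0.226 in drought at 12 h and 0.439 at 3 h. The rescaled value in cold at 12 h lies under 2-fold, and those in salt and drought at 12 h are further from the control than before. In heat at 12 h the rescaled ratio lies below the interval given above, so its place level with the control depends on the scaling.

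The comparison of 12 h with 3 h within a stress needs no control, and its 4 ratios share no library. lnc-18 was 26.0-fold higher at 12 h than at 3 h in cold (16.5 to 43.6), and 118-fold higher in heat (32.3 to 981). Both lower bounds are far above 1. In salt the ratio of 12 h to 3 h was 0.720 (0.506 to 1.01), and in drought 0.703 (0.503 to 0.974), so of these only drought lies below 1 beyond counting error. Relative to the shift of the libraries the ratios were 23.0 in cold, 92.9 in heat, 0.471 in salt and 0.515 in drought. Time under stress and time of harvest cannot be told apart here.

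**Figure D3:**
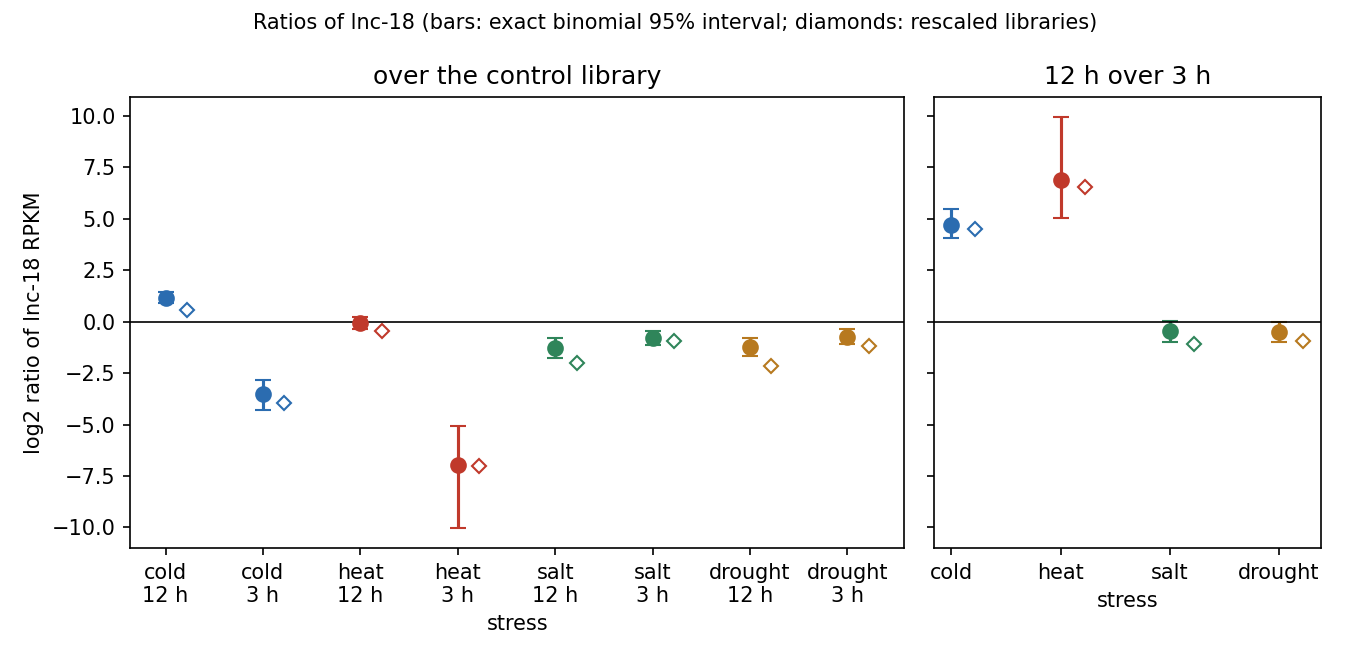
Log2 ratio of lnc-18 RPKM for each stress library over the control (left) and for 12 h over 3 h within each stress (right), with exact binomial 95% intervals. Diamonds give the ratios after the libraries were rescaled by their median lncRNA ratio. Cold and heat lie far above 0 for 12 h over 3 h (4.70 and 6.88), and salt and drought a little below it (-0.47 and -0.51).

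Between stresses, heat had less lnc-18 than cold at both times. The ratio of heat to cold was 0.424 at 12 h (0.360 to 0.499) and 0.0936 at 3 h (0.0106 to 0.388). Both intervals lie below 1, and the one at 3 h is wide because 2 reads stand against 19.

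Set among all 1362 loci on log2(RPKM + 1), a scale that understates the change of low loci, lnc-18 stood near the ends of 4 of the 12 comparisons. In cold at 12 h over 3 h it had the largest increase of all loci, with a difference of 4.17, and 3.52% of loci were at least 2-fold higher there. In heat at 12 h over 3 h it had the second largest, 4.36, after level2_lnc-245 with 4.67, a predicted antisense locus, and 4.26% of loci were at least 2-fold higher. Against the control it had the 3rd largest decrease in cold at 3 h (-3.04) and the 2nd largest in heat at 3 h (-4.43). Of all loci, 1.47% and 1.32% were at least 2-fold lower there. Only a locus of 1 RPKM or more in the control can pass as lower on this scale. Of the 55 loci that reached it, 20 were lower in cold at 3 h and 18 in heat at 3 h. Since lnc-18 was chosen for its values, nothing is read from its places themselves.

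By the same 2-fold rule lnc-18 was higher in cold at 12 h (1.13, with 5.73% of loci higher) and lower in salt at 12 h (-1.19, 1.17% lower) and drought at 12 h (-1.16, 1.32% lower). It passed the rule in neither direction in heat at 12 h (-0.07, 6.31% of loci either way). The same held for salt at 3 h (-0.75, 2.06% lower) and drought at 3 h (-0.69, 1.62% lower), and for 12 h over 3 h in salt (-0.44, 0.954% lower) and drought (-0.47, 0.881% lower). Only a locus of 1 RPKM or more in the reference library can pass as lower by this rule. The shares of lower loci therefore come from few loci. In the control 55 loci reached that level, in salt at 3 h 91 and in drought at 3 h 81. Of the 55, 28 were lower in salt at 3 h and 22 in drought at 3 h. At 12 h, 16 were lower in salt and 18 in drought. For 12 h over 3 h, 13 of 91 were lower in salt and 12 of 81 in drought.

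Of the 48 loci at least 2-fold higher at 12 h than at 3 h in cold and the 58 in heat, 4 were in both lists, which is 8.33% of the cold list and 6.90% of the heat list. Besides lnc-18 these were AT1G11185, level2_lnc-413 and AT2G43375, named here after their values were seen. AT1G11185 had log2(RPKM + 1) differences of 1.95 in cold and 2.03 in heat, level2_lnc-413 had 2.10 and 1.33, and AT2G43375 had 1.34 and 1.51. lnc-18 was the only one of the 4 that is a predicted antisense locus, a class that holds 256 of the 1362 loci. As background to the 2 shares, 4.26% of all loci were higher in heat and 3.52% in cold. Neither count was tested against this background.

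**Figure D4:**
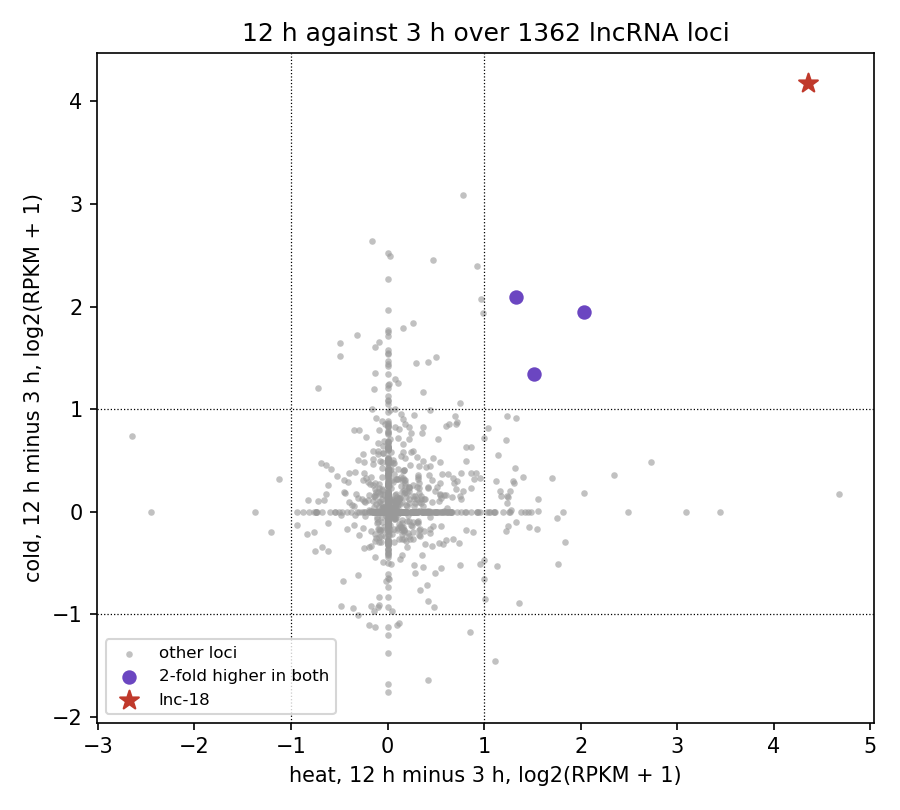
Difference in log2(RPKM + 1) between 12 h and 3 h in heat (horizontal axis) and in cold (vertical axis) for 1362 lncRNA loci, with dotted lines at 2-fold. lnc-18 (star) lies at 4.36 in heat and 4.17 in cold, and the 3 other loci 2-fold higher in both (purple) lie between 1.33 and 2.10 on both axes.

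The span of lnc-18 over the libraries was wide, and the locus was chosen with these values known. Its highest RPKM was 278 times its lowest, a value that rests on 2 reads in heat at 3 h. The highest was 26.0 times the level in cold at 3 h, the second lowest. Of the 188 loci with at least 50 reads, 133 had a read in every library, and among these the span of lnc-18 was the widest, against a median of 12.6-fold. The other 55 had a library at 0, so their span has no upper value and they are left out of this rank. Given the choice of the locus, nothing is read from its rank or from the loci of like depth below.

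The 2 loci just above lnc-18 in total reads were AT5G64572 (antisense, 1694 reads) and AT5G06165 (intergenic, 1647 reads), with spans of 17.0-fold and 9.67-fold. Those just below were AT4G13495 (smRNA precursor, 1103 reads) and AT5G45472 (antisense, 1067 reads), with 6.11-fold and 9.62-fold. All 4 are annotated lncRNAs, and none of them spanned more than 17.0-fold.

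Over all 9 libraries few loci had a profile like that of lnc-18, and the likest were sparse. Likeness is Pearson's r of log2(RPKM + 1) over the 9 libraries, given as a description for the 187 other loci with at least 50 reads, and the points share the depth and scaling of each library. The median r was 0.15. The highest were AT2G45245 (0.70, an smRNA precursor with 68 reads), AT5G36002 (0.69, antisense, 116 reads), AT2G33051 (0.62, antisense, 171 reads), AT1G56242 (0.58, antisense, 149 reads) and level2_lnc-43 (0.58, 75 reads).

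The values show where these profiles part from that of lnc-18. level2_lnc-43 had 7.50 RPKM in cold at 12 h and 0 in cold at 3 h, but 0 in the control. AT1G56242 had 2.46 RPKM in cold at 12 h and 0.0243 at 3 h, and was at 0 in heat at 12 h and at 3 h. AT5G36002 had 0.980 RPKM in cold at 12 h and 0.0972 at 3 h, and 0.186 in heat at 12 h and 0.0432 at 3 h. It therefore shares the order of the times in both stresses, at levels under 1 RPKM.

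AT2G33051 had 0.773 RPKM in cold at 12 h and 0.0879 at 3 h, and 0.407 in heat at 12 h and 0.208 at 3 h. AT2G45245 had 0.213 RPKM in cold at 12 h and 0 at 3 h, and 0.350 in heat at 12 h and 0.0812 at 3 h. In heat at 3 h, where lnc-18 had 0.200 RPKM, AT2G33051 was level with it. None of the 5 has 200 reads, so a list of loci with at least 200 reads could hold none of them. The highest r in that list was 0.52. With the control library left out, the highest r was 0.80, for level1_lnc-315 with 242 reads. Its log2(RPKM + 1) difference between 12 h and 3 h was 1.94 in cold and 0.98 in heat. The list therefore depends on the libraries used.

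At the other end, AT1G26208 had an r of -0.78 (246 reads) and AT3G02832 one of -0.60 (314 reads). AT1G26208 had 0.405 RPKM in cold at 12 h and 0.835 at 3 h, and 0.204 in heat at 12 h and 1.03 at 3 h, the reverse order of lnc-18 in both stresses.

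Neighbours on the chromosome had far fewer reads than lnc-18, which holds for most lncRNA loci. The catalogue holds 2 other lncRNA loci within 100000 bp of lnc-18: AT1G13448, with 24 reads over the 9 libraries, and level2_lnc-19, a predicted antisense locus with 12 reads, 11 of them in heat at 12 h. Their r to lnc-18 was -0.01 and 0.25.

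lncRNAs within 1000 bp of other defensin-like genes had 0 to 5 reads each over the 9 libraries. The annotation names 347 defensin-like genes, counting also the low-molecular-weight cysteine-rich (LCR) and related families, and 6 lncRNA loci lie within 1000 bp of one. Of these, 4 overlap the gene, all on the opposite strand. Besides lnc-18 they are AT4G22233 at AT4G22235 (5 reads over the 9 libraries), level1_lnc-314 at AT5G44973 (5 reads) and level2_lnc-301 at LCR55 (0 reads). Near a gene without overlap lie AT2G10537 by LCR29 (2 reads) and level2_lnc-155 by LCR67 (0 reads). Few reads are common in the catalogue, where 1114 of 1362 loci had any read. Among predicted antisense loci the median was 4 reads for those that the authors list with H3K27me3, and 7 for the others.

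The highest level of any of these 5 others in any library was 0.193 RPKM, that of AT4G22233 in cold at 12 h, where lnc-18 had 55.6. None of the 5 passed the 2-fold rule in either direction in any of the 12 comparisons, and at 0 to 5 reads each a change was not detectable at this depth. Of all 1362 loci, the share past the rule in either direction against the control was 7.12% in cold at 12 h and 3.67% at 3 h, 6.31% in heat at 12 h and 2.5% at 3 h, 8.81% in salt at 12 h and 5.51% at 3 h, and 10.7% in drought at 12 h and 4.85% at 3 h. For 12 h over 3 h it was 4.55% in cold, 4.63% in heat, 6.02% in salt and 7.34% in drought. For a locus at 0 reads, the floor used here is 3 reads in a library, an approximate upper limit for counting error only.

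The chromatin columns are values the authors gave to the transcript, not to a library, so they are the same for all conditions. They are scores of intensity. Neither their unit nor the plants they were measured in is stated in the labels or file headers. The 3′ exon of lnc-18 lies within AT1G13609, and a histone mark belongs to no strand. The histone scores therefore cannot be assigned to lnc-18 apart from the gene it overlaps. lnc-18 had an H3K27me3 intensity of 5.72, and 238 of the 255 other predicted antisense loci (93.3%) were lower, with a median of 1.05. H3K27me3 is also the sole mark that the authors list for it as a potential histone modification. Of the 256 predicted antisense loci, 30 have H3K27me3 in that list and 26 have it alone.

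H3K36me3, which in Arabidopsis marks transcribed gene bodies, stood at the other side among predicted antisense loci. lnc-18 had 0.436, with 33 of the 255 others (12.9%) lower and a median of 1.88. This place depends on the set: 36.9% of all other predicted loci, 40.7% of the other level 2 loci and 0.621% of annotated antisense loci were lower. Marks of active starts were near the middle of the predicted antisense loci or above it. H3K9Ac was 3.45 (71.4% lower), H3K4me3 1.53 (61.2% lower), H3K4me2 2.62 (58.4% lower) and H3K18Ac 2.23 (58.0% lower). These places depend on the set too. Among all other predicted loci 80.3%, 73.1%, 74.3% and 66.2% were lower, in the same order of marks. Among annotated antisense loci only 19.3%, 23.0%, 16.1% and 15.5% were. Chromatin values of annotated loci were taken at their own row, and whether that row is right was not checked. The column labelled H3 was 1.56 (48.2% of the other predicted antisense loci lower), close to their median of 1.57.

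H3K36me2 was 2.08, with 54.9% of the others lower. H3K27me1 and H3K9me2, marks of silent heterochromatin in Arabidopsis, were both at 0, as they were at 173 and at 215 of the 255 others. For DNA methylation the deposited intensities were 19.6 in CpG, 0 in CHG and 15.4 in CHH contexts, with 59.2%, 0% and 71.8% of the others lower. The authors list no DNA methylation and no transcription factor binding for the locus. For polyadenylation, all 256 predicted antisense loci, lnc-18 among them, are entered as NO or NA.

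**Figure D5:**
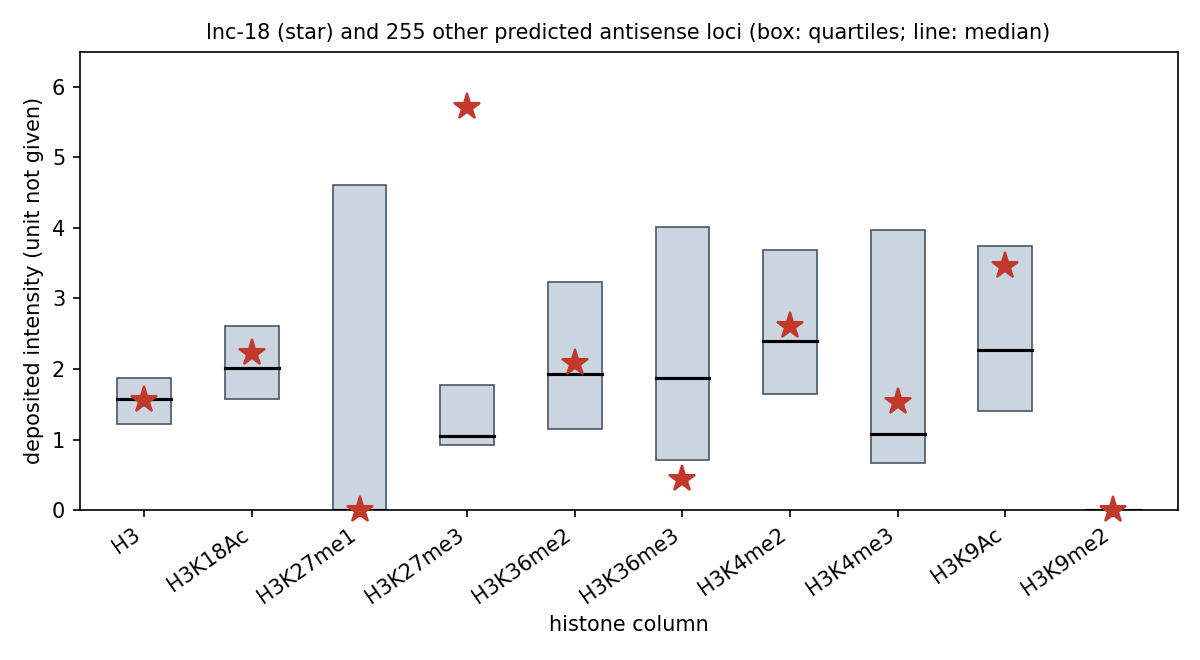
Deposited intensity of 10 histone columns for lnc-18 (stars) and for 255 other predicted antisense loci (boxes, quartiles; lines, medians). H3K27me3 of lnc-18 (5.72) lies above the box, H3K36me3 (0.436) below it, and H3K27me1 and H3K9me2 at 0.

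Among loci of its class that carry the H3K27me3 listing, lnc-18 had the most reads. Of the 30 predicted antisense loci with the listing, 22 had any read, the median was 4 reads and the next highest after lnc-18 was level2_lnc-48 with 36. Of the 226 without it, 196 had any read, the median was 7 and the highest was level1_lnc-319 with 363. At least 50 reads were reached by 1 locus with the listing, lnc-18, and by 8 without it. Because lnc-18 was picked with its abundance known, this is a description and no association was tested.

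Sequence conservation of lnc-18 was modest and its structure score high within its class. Its deposited blastn bit score was 147, with 21.2% of the other predicted antisense loci lower and a median of 161. Its structure conservation index, a score for how far related sequences fold alike, was 0.710, with 93.7% lower and a median of 0. The randfold p-value by the authors, which compares the folding energy with that of shuffled sequence, was 0.857, the median of the class. The authors class it as structure conserved, as they do all 256 predicted antisense loci, and as matching no stress related structure, which 9 of them (3.52%) match.

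lnc-18 does not appear in the authors' deposited tables of stress-responsive lncRNAs. The authors' deposited table of responsive predicted transcripts has 217 entries and that of responsive annotated transcripts has 125, and neither holds lnc-18 or any locus of the antisense class. The authors' deposited table of enriched gene ontology terms for co-expressed lncRNAs has 338 terms, none of them listing lnc-18.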

How the data were processed

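Expression values of the 9 seedling libraries are RPKM made by the authors, per the file headers. Per the submitters' processing notes the build was TAIR10, and the tools included Bowtie 0.12.9, TopHat2 2.0.8 and Cufflinks. Which of them counted reads, and how, is not stated there or in the labels. Conservation, structure and chromatin values are deposited scores, and randfold is a p-value by the authors. Other deposited columns are classes and exon numbers.

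In each library the product of RPKM and exon length takes whole multiples of 1 step, which gave the mapped reads (17.6 M to 37.0 M) and the reads of each locus. Of the 2790 non-zero values of predicted loci, 2790 came out whole within 0.02 reads. Values of annotated loci were whole at their own row for 79 of 1922, and for 1922 of 1922 once assigned in the order of the number in the locus identifier, which is the order used; lnc-18 is not touched by this. Chromatin, conservation and structure values of annotated loci were used at their own row, and their order was not checked. The tables hold 24 further columns of per-sample values that were not used.

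Ratios have exact binomial and levels exact Poisson 95% intervals (SciPy 1.17.1), for counting error only. A locus was called at 2-fold on log2(RPKM + 1), a pseudocount of 1 RPKM. With 1 library per condition no test was run. Named are lnc-18, the genes beside it, and the 5 likest and 2 least like loci. Also named are loci at defensin-like genes, loci within 100000 bp and the 4 nearest in total reads. Named after their values were seen were level2_lnc-245, level2_lnc-48, level1_lnc-319, level1_lnc-315, AT1G15405 and the loci 2-fold higher in both cold and heat. Structure and sequence were read from TAIR10.1: all 384 annotated lncRNAs lie at the same place and strand there, and 180 of 180 introns of predicted lncRNAs have GT and AG ends. BLAST 2.17.0 searched for copies. The steps were tested on simulated data. The labels could not be checked against protein-coding marker genes with the values used here. The locus, the lists and the comparisons were chosen with earlier results of these data known. A table of protein sequences was not used here, and the sequence before the start of lnc-18 is not reported here.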

Additional observations from a re-analysis of the deposited data

Results flagged for a closer look

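The direction of lnc-18 against the control differed between the times of cold: the log2 ratio was 1.16 at 12 h and -3.54 at 3 h, and both ratios share the control library. The direction of 12 h over 3 h differed between stresses, with log2 ratios of 4.70 in cold and 6.88 in heat, against -0.47 in salt and -0.51 in drought. With 1 library per condition neither difference was tested.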

How the results depend on the processing

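No paired analysis was possible because each condition has 1 library and the labels carry no replicate numbers that groups share, and for the same reason no replicate could be left out. Log2 ratios of lnc-18 kept their sign under all 5 alternatives in all 12 comparisons. Only the changes of scaling could have reversed a sign, since the same pseudocount added to both values cannot. Rescaling by the median ratio moved cold at 12 h over control to 0.58 (1.16 as reported), heat at 12 h to -0.46 (-0.07), salt at 12 h to -2.02 (-1.27), drought at 12 h to -2.15 (-1.23) and at 3 h to -1.19 (-0.72), and salt at 12 h over 3 h to -1.09 (-0.47). Scaling to all lncRNA reads moved cold at 12 h to 0.59, salt at 3 h to -0.43 (-0.79), drought at 12 h to -1.96 and salt at 12 h over 3 h to -1.17. The same without AT1G15405 gave 0.48 for cold at 12 h, -0.46 for heat at 12 h, -2.02 for salt at 12 h and -2.21 for drought at 12 h, and for 12 h over 3 h gave 4.00 in cold (4.70), -1.25 in salt and -1.14 in drought (-0.51). A pseudocount of 1 RPKM moved heat at 3 h to -4.43 (-6.96) and heat at 12 h over 3 h to 4.36 (6.88). Calls of higher and lower loci, summed over the 8 comparisons with the control, were 514 and 160, against 2591 and 524 with a pseudocount of 0.1 RPKM, 104 and 57 at 4-fold, 324 higher after rescaling and 85 lower among predicted loci. For 12 h over 3 h they were 263 and 44, against 1271 and 433, 38 and 4, and 146 higher after rescaling. Of the 5 likest loci, 3 were shared with Spearman's rho, 2 with a pseudocount of 0.1 RPKM, 0 at 200 reads, 1 without the control, 2 without heat at 3 h and, in alternatives added after seeing the data, 1 with annotated values at their own row and 1 among predicted loci. The 0 at 200 reads was fixed in advance, since none of the 5 has that many reads. Among predicted loci 1 was the most possible, since only level2_lnc-43 of the 5 is predicted. lnc-18 was above the median in 9 of 16 deposited columns among predicted antisense loci and in 4 among annotated antisense loci. Other lncRNA loci at defensin-like genes numbered 5 within 1000 bp, 3 overlapping and 23 within 5000 bp. Beyond what each scaling itself changes, the cause was not tested. In heat at 3 h, 2 reads limit every value.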
